A study of Mus musculus with 10 samples.

Results

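The wild-type m6A methylome of the mouse cortex and hippocampus, sampled on postnatal day 5, was described from the consensus peak list of the wild-type libraries alone, 3 m6A immunoprecipitation (IP) and 3 input libraries. All entries of that list were taken, and entries with overlapping exonic blocks on one strand were joined, so that 15091 entries became 15009 peaks. These are 15009 of the 18682 peaks of the whole series, whose other 4 libraries come from Mettl14 knockout animals made with Nestin-Cre and are not compared here. The wild-type animals are labelled WT without a strain. Their RNA was polyadenylated RNA, and the labels name cortex and hippocampus as the tissue but also a serum-free culture medium, so the labels leave unsettled whether tissue or cultured cells gave the RNA.

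N6-methyladenosine (m6A) is the most common internal modification of mRNA. A nuclear complex of METTL3, METTL14 and partner proteins writes it within a short sequence context centred on an adenosine before a cytidine, and reader proteins of the YTH family bind it and alter splicing, translation and decay. It is known to be placed in long exons and around stop codons, and in the developing brain it is needed for the timing of neurogenesis. In m6A-seq an antibody enriches RNA fragments, so a peak marks a stretch of RNA and not a single base, and the antibody also binds the related mark m6Am next to the mRNA cap. The list gives where a peak was called and its p-value (or q-value, not stated) but no enrichment and no value per library. It therefore has no replicate error, and the depth of the libraries is unknown. Intervals below are Wilson 95% intervals over peaks or genes, which are not replicates, and cover counting error only. Expression was not measured in the list, so a transcript that is little expressed and one that is little methylated cannot be told apart when neither has a peak. Coordinates are those of GRCm38, counted from 1.

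Sequences were at hand for gene starts and for miRNA hairpins, and both bear on where peaks lay. The first transcribed bases of 6 protein-coding genes are shown because a peak covered the whole start window of each, with p-values listed as 0 (too small to be held), and they were the widest such peaks. They are 30 bases long, on the transcribed strand, from RefSeq on GRCm38.p6, and capitals mark GGAC, the core of the most frequent m6A context. Basp1 and Cplx1 encode a growth cone protein and a regulator of synaptic vesicle fusion, Nrgn encodes the calmodulin-binding neurogranin, Abcf1 a translation factor, Nap1l5 is an imprinted gene, and Ptms encodes parathymosin.
Basp1, chr15:25413735-25413764, minus strand: aaatgcagaggctgcagcggcggcggcagt
Nrgn, chr9:37552716-37552745, minus strand: gcagggctcaggttacattcgcaagagttg
Abcf1, chr17:35969721-35969750, minus strand: gcgccgctggaGGACtcttaactgccgccg
Nap1l5, chr6:58907097-58907126, minus strand: gcGGACgtcaccacagccgtcagcgtttgc
Ptms, chr6:124917917-124917946, minus strand: agcggctggtcggcggcagctctgctggtg
Cplx1, chr5:108549998-108550027, minus strand: gtcatgcgGGACgcgggcgggggcgcctct

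In Abcf1, Nap1l5 and Cplx1 the motif lay within these 30 bases, in Nrgn it lay later in the first 50 bases, and Basp1 and Ptms held none in the first 50. The peaks themselves were far longer than the windows. The Basp1 peak held 1018 exonic bases on 2 blocks, the Nrgn peak 911 bases on 4 blocks, the Abcf1 peak 841 bases on 10 blocks and the Nap1l5 peak 740 bases on 1 block. The Ptms and Cplx1 peaks held 711 and 682 bases on 5 and 4 blocks. Each of these 6 peaks began exactly at the annotated start, and beyond Basp1 and Ptms, with 1 peak each, the genes had 2 peaks.

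Over the whole RefSeq start table, a peak covered all of the first 50 transcribed bases in 438 of 32851 windows, which belong to 411 of 27025 genes. A further 304 windows were covered in part. In 339 of the 438 (77.4%) the peak's border lay within 10 bases upstream of the start, so most of these peaks began at the border of the gene model. GGAC on the transcribed strand was found in 105 covered windows (24.0%, interval 20.2 to 28.2). Its share was 18.9% in all windows (18.4 to 19.3) and 19.8% in 7256 windows of genes that had a peak elsewhere (18.9 to 20.8). The longer GGACT, which contains GGAC, was in 8.45% of covered windows (6.19 to 11.4), in 5.76% of all and in 4.67% of those of genes with a peak elsewhere. The broader DRACH consensus (A, G or T, then A or G, then A, then C, then A, C or T) holds GGAC followed by A, C or T, and so GGACT. It was in 43.8% of covered windows (39.3 to 48.5), in 54.4% of all and in 41.5% of those of genes with a peak elsewhere. Base composition differed between these sets, with 64.8% G and C in covered windows, 56.7% in all and 65.8% in genes with a peak elsewhere, and its part in the motif shares was not tested. The first base was A in 32.6% of covered windows (28.4 to 37.2), in 28.02% of windows of genes with a peak elsewhere (27.0 to 29.1) and in 34.4% of all. Several windows of a gene can overlap, so windows are not independent.

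Peaks also lay over miRNA hairpins, most of them within longer transcripts. Of 1005 hairpins in the RefSeq table, 16 (1.59%) shared at least 1 exonic base with a peak on the same strand, and 5 were covered whole. In 3 of these 5, Mir8114, Mir1905 and Mir5125, the borders of the peak were those of the hairpin itself. The list assigned the Mir1905 and Mir5125 peaks to the miRNA genes themselves and the Mir8114 peak to Glul. The other two were Mir9-2 and Mir671, hairpins inside longer peaks, named after their values were seen. The miR-9 family controls neural progenitor proliferation and neuronal differentiation in the forebrain. Mir9-2 (chr13:83738814-83738885, plus strand, 72 bases) lay in a single-block peak of 419 bases from 83738469 to 83738887, with a listed p-value of 1e-290, assigned to the noncoding host gene C130071C03Rik. Mir671 (98 bases) lay in a single-block peak of 1313 bases of Chpf2, a chondroitin synthesis gene, from 24591151 to 24592463 on chromosome 5 (p-value listed as 1e-138). Their mature sequences are shown with the seed, bases 2 to 8, in capitals.
mmu-miR-9-5p: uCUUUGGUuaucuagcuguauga
mmu-miR-9-3p: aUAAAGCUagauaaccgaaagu
mmu-miR-671-5p: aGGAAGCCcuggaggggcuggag
mmu-miR-671-3p: uCCGGUUCucagggcuccacc

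The 23 mature miRNAs of the hairpins touched by a peak carried 23 different seeds. The Mir9-2 hairpin held a single DRACH match, in its 3p arm, shown here with 10 bases on either side and the match in capitals.
Mir9-2 motif context: uaaagcuagaUAACCgaaaguaaaa

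Among the 16 hairpins, 9 held a DRACH match and 5 held GGAC, whereas 74.4% and 24.5% of all hairpins in the table did. Motifs were counted over whole hairpins, and only 5 of the 16 were covered whole, so a match need not lie under a peak. The Meg3 peak that reached into Mir770 covered 15 of its 94 bases. A Dgcr8 peak of 270 bases reached into the hairpin Mir1306 and covered 5 of its 79 bases. The same peak covered 33 of the 88 bases of another hairpin, that of miR-3618. Dgcr8 itself encodes the cofactor that recognises hairpins for Drosha.

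The 15009 peaks lay in 7714 genes, on all 19 autosomes and the X chromosome. Genes with a single peak numbered 3888 (50.4%, interval 49.3 to 51.5), and 3826 (49.6%, 48.5 to 50.7) had 2 or more. The mean was 1.95 peaks per gene, 409 genes (5.30%) had 5 or more and 18 genes had 10 or more. The 409 genes with 5 or more peaks held 16.4% of all pairs of a peak and a gene. From 1 peak to 7 peaks, the number of genes with exactly that many went 3888, 1999, 950, 468, 226, 83 and 45.

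**Figure D1:**
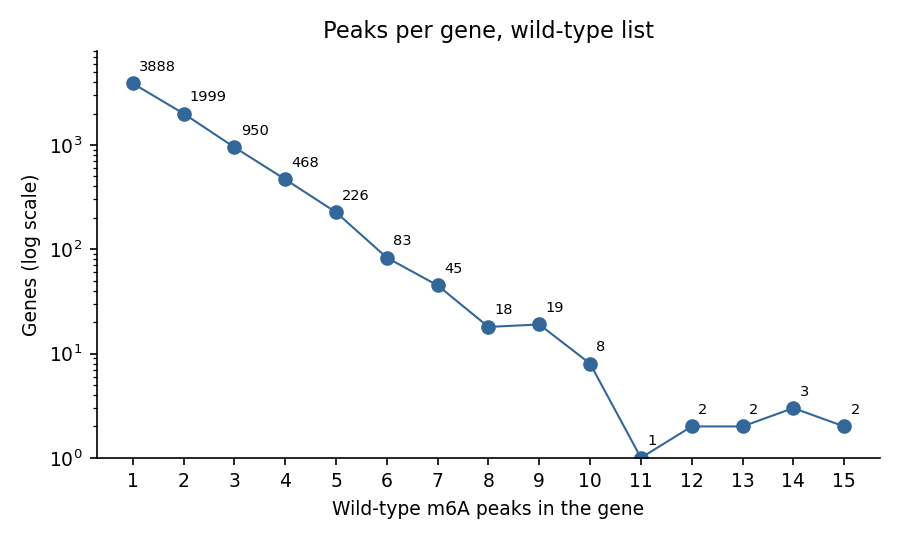
Number of genes (vertical axis, log scale) by the number of wild-type m6A peaks in the gene (horizontal axis), over the 7714 genes with a peak; each point is labelled with its count. The count falls from 3888 genes with 1 peak to 226 with 5, and 2 genes reach 15.

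The highest number of peaks in a gene was 15. Kmt2d, a histone methyltransferase of enhancers, on chromosome 15 (98831669 to 98874077, minus strand), and Golgb1, which encodes the Golgi tether giantin, on chromosome 16 (36875093 to 36933085, plus strand), had 15 peaks each. Plec, Spen and Bsn had 14 each. Plec encodes the cytoskeletal linker plectin, Spen a transcriptional corepressor, and Bsn the active zone scaffold bassoon. Its partner scaffold piccolo, encoded by Pclo, had 12 peaks. Hivep3, a zinc finger factor gene, had 13, Fem1a 12, the repressor gene Cic 11 and Map1a, a microtubule-associated protein gene of dendrites, 10. The Rik-named gene 2900026A02Rik, outside the rule for named genes, also had 13. By summed exonic length the list was led by Plec (6701 bases), Apc2 (6053), Spen (5863), Bsn (5498) and Map1a (5310). In these 10 genes single peaks ranged from 60 bases (Hivep3) to 1740 bases (Plec).

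Many peaks of a gene lay close to each other. Among 7361 pairs of neighbouring peaks of a gene, 3159 (42.9%, interval 41.8 to 44.0) lay less than 500 bases apart on the chromosome, with a median distance of 742 bases and quartiles of 209 and 6470. In the 409 genes with 5 or more peaks, the stretch from the first to the last peak took up a median of 65.4% of the span (quartiles 31.5 and 94.1). In Hivep3, 13 peaks lay within 41.1 kb, 10.2% of a span of 404 kb, and the middle of the first peak lay at 89.1% of the way from gene start to gene end. In Plec the middles of the peaks began at 69.9% and had their median at 91.4%. In Bsn they began at 54.0%. Fem1a differed in layout, with peaks from 2.85% to 91.4% of a span of only 6.82 kb and with 36.2% of the span under peaks. Pclo had peaks near both ends, with middles from 1.74% to 98.7% of its 349 kb.

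**Figure D2:**
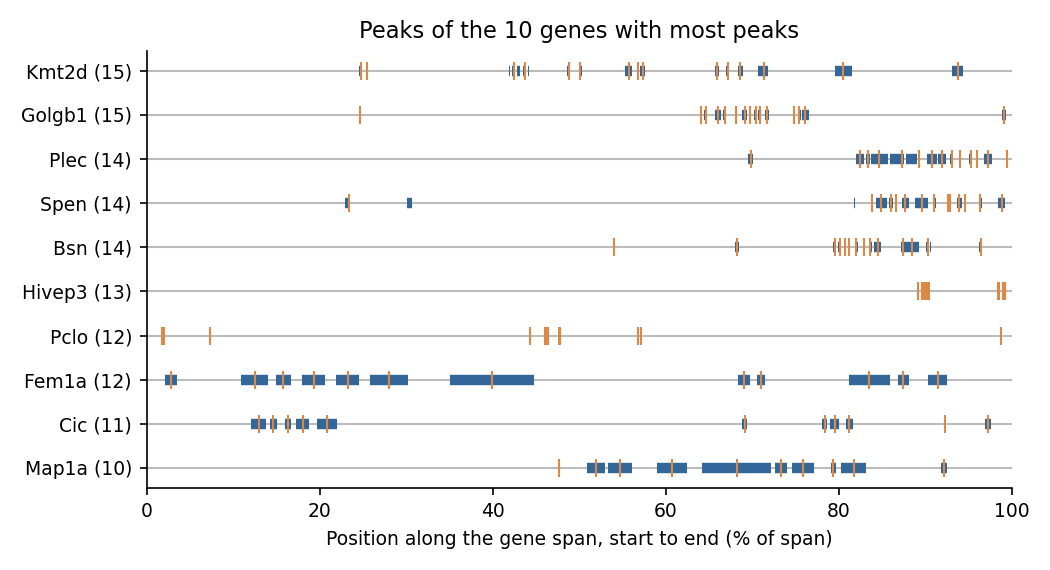
Peaks of the 10 genes with most peaks, by position along the gene span in percent from start to end; blue bars are exonic blocks of peaks, orange ticks the middle exonic base of each peak, and the number of peaks follows each name. All Hivep3 peak middles lie beyond 89.1% of the span, whereas those of Fem1a run from 2.85% to 91.4%.

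Most peaks were narrow. The median exonic width was 208 bases (order-statistic 95% interval 181 to 209), the quartiles were 121 and 328 bases, and all peaks together covered 3914 kb of exonic sequence. The narrowest peak held 58 bases and the widest 4019. Widths fell on a grid: 76.8% were a multiple of 30 bases or 1 base more, and the most frequent width was 61 bases, with 1016 peaks. The width of a narrow peak is therefore known only to a step of 30 bases. Only 241 peaks (1.61%, interval 1.42 to 1.82) were wider than 1000 bases.

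**Figure D3:**
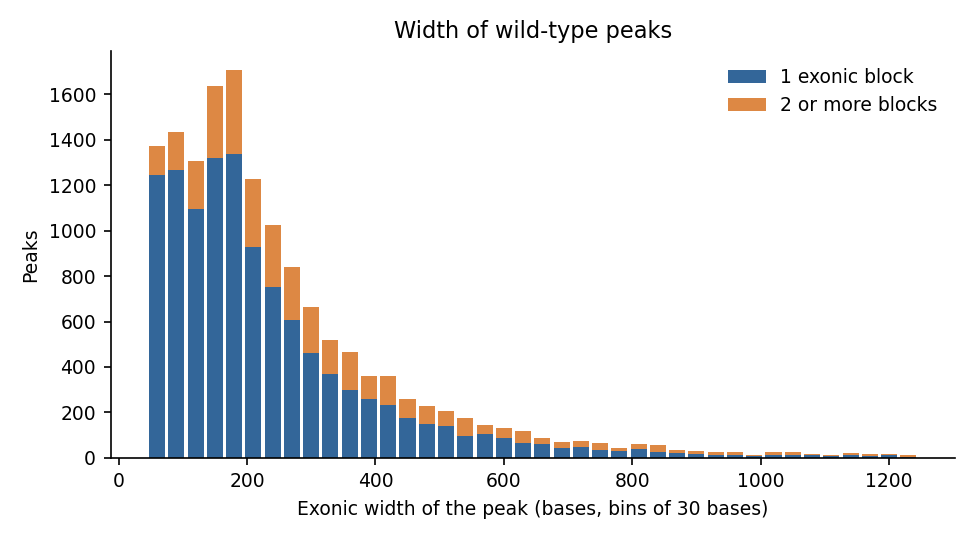
Number of peaks (vertical axis) by exonic width in bins of 30 bases (horizontal axis, bases), with single-block peaks in blue and peaks on several blocks stacked in orange; 93 peaks wider than 1244 bases are not drawn. Most peaks lie below the upper quartile of 328 bases, with a long tail to the right.

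The widest single-block peaks ran without an interruption over 2243 to 4019 bases. Ankrd11, a chromatin regulator gene of neural development, held the widest, 4019 bases on chromosome 8 from 122892056 to 122896074 (minus strand). Peg13, an imprinted noncoding RNA with brain expression, had a block of 3050 bases (chr15:72806618-72809667), and 67.8% of its 4.72 kb span lay under its 2 peaks. A block of 2605 bases lay in Apc2, a brain homologue of the Wnt regulator Apc. Pnmal2 had a block of 2596 bases, and its 3 peaks covered 75.6% of its span. Akap12, a scaffold gene for protein kinase A, had one of 2243 bases. The p-value was listed as 0 for the first 4 and as 1e-207 for Akap12.

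Most peaks lay on 1 exonic block (76.5%), that is, on a stretch without an intron, while 23.5% (3522 peaks, interval 22.8 to 24.2) ran over 2 or more. Peaks on 2 blocks numbered 2156, on 3 or more 1366 (9.10%) and on 5 or more 279 (1.86%). The median exonic width was 181 bases on 1 block, 210 on 2 blocks and 329 on 3 or more. The gap between neighbouring blocks had a median of 1137 bases (quartiles 363 and 3222), and inner blocks, which have another block on both sides, a median of 105 bases (72.5 and 144). The peaks on the most blocks lay in genes of a myosin, of 2 collagens, of the centrosome and of translation. Myh10, a nonmuscle myosin heavy chain gene, had a peak of 3024 bases on 19 blocks (chromosome 11, 68787350 to 68814456). Col6a1, a collagen chain gene, had one of only 897 bases on 19 blocks. The centrosome gene Cep131 had 1611 bases on 14 blocks, the cartilage collagen gene Col9a3 600 bases on 12, and the translation initiation factor gene Eif3a 2305 bases on 11 blocks. Eif3a had no other peak.

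The end of the gene span held more peaks than any other part of it. Spans were cut into 10 equal parts from start to end. Of the 14997 peaks inside their gene, 38.8% (interval 38.0 to 39.5) had their middle in the last part and 14.0% in the one before. The first part held 12.4% (11.9 to 12.9), and parts 2 to 5 held between 3.42% and 4.23% each. Spans include introns and untranslated parts, so these parts do not tell coding sequence from untranslated sequence. Within 1000 bases of the gene end lay 2468 peaks (16.5%, 15.9 to 17.1), and within 200 bases of the gene start 666 (4.44%, 4.12 to 4.78). The share near the end depended on the window, with 7.50% within 500 bases and 57.2% within 5000. That near the start did too, with 1.68% within 100 bases and 7.77% within 500.

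Peaks whose middles lay near the 2 ends of genes differed in form, but the windows were unlike. A wide peak that began at the gene start had its middle beyond 200 bases and was not counted there. The window of 1000 bases at the end left more room, so the widths at the 2 ends are not like for like. Those near the end had a median width of 181 bases, and 8.55% ran over several blocks. Those near the start alone had a median width of 150 bases, and 26.0% ran over several blocks, close to 26.4% of the peaks elsewhere in genes, whose median width was 210 bases. The listed p-values differed too. When the list was ranked by p-value and cut into 5 equal classes, near-start peaks made up 0.734% of the class with the lowest p-values (up to 1e-120) and 1.90%, 3.07%, 5.13% and 11.4% of the following classes. Near-end peaks made up 17.7% of the first and 14.9% of the last class. Width moved with the p-value, from a median of 389 bases in the first class to 120 in the last. The window of 200 bases leaves out wide peaks that begin at the start, so it limits the near-start share in classes of wide peaks. These shares therefore do not show that peaks at gene starts had higher p-values. The part of width in them was not tested. The share of peaks on several blocks was 29.7% (28.1 to 31.4) in the first class and 17.9% (16.5 to 19.3) in the last. A p-value also depends on read number, so it is not a methylation level.

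**Figure D4:**
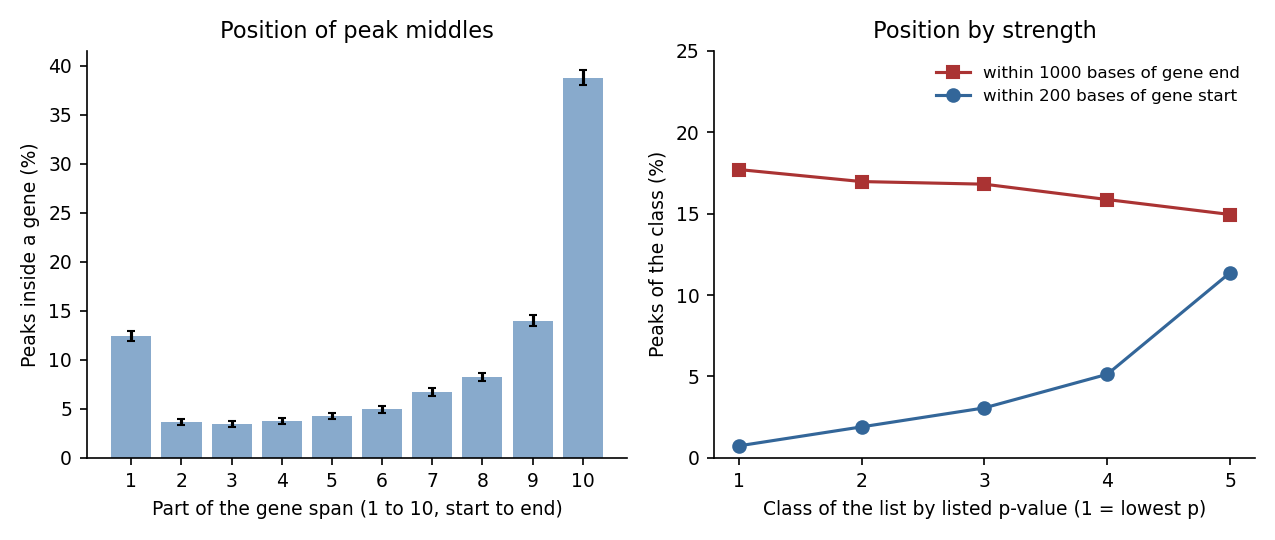
Left, percent of the 14997 peaks inside genes (vertical axis) by the part of the gene span, of 10 equal parts, that holds the peak's middle (horizontal axis, start to end), with Wilson 95% intervals; the last part holds 38.8%. Right, percent of peaks with their middle near the gene end (squares) or start (circles) in 5 equal classes by p-value, 1 having the lowest. The share near the start, whose window of 200 bases leaves out wide peaks, goes from 0.734% to 11.4%.

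Nearly all genes with a peak were protein-coding, 7515 of them, which is 34.3% of the 21900 protein-coding genes of the RefSeq table. This 34.3% (interval 33.7 to 34.9) is the background for every gene group below. Of 12731 long noncoding RNA genes, 164 (1.29%) had a peak. Meg3, a maternally expressed noncoding RNA, led them with 9 peaks over 2948 bases. Miat, a noncoding RNA of neurons, and Zim3, listed as noncoding in the gene table, had 4 each, as did Stk35os1, which is antisense to a coding gene, and Particl had 3. The libraries were stranded, but no source used here says if peak calling kept the strand, so the Stk35os1 peaks are uncertain.

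The share of protein-coding genes with a peak was higher in longer genes. It was 15.2% of 5047 genes under 5 kb (interval 14.2 to 16.2), 32.0% from 5 to 20 kb, 39.3% from 20 to 60 kb, 52.1% from 60 to 200 kb and 61.01% of 990 genes of 200 kb and over (57.9 to 64.0). Among the genes with a peak, the share with 2 or more went from 43.3% in the shortest class to 61.3% in the longest, and the mean from 1.67 to 2.43 peaks. Some very short genes were nevertheless dense in peaks. Ajm1, a gene of the apical junction, had 7 peaks in 4.68 kb, with 44.7% of the span under peaks. Slitrk1, a synaptic adhesion gene, had 6 in 4.25 kb, Usp27x 6 in 3.24 kb, Sowaha 6 in 3.62 kb and the protocadherin gene Pcdhb19 6 in 4.71 kb. At the other end, the 5 longest genes without any peak were Dmd (2390 kb), Ptprd (2271 kb), Lrp1b (2058 kb), Dlg2 (1973 kb) and Fhit (1612 kb). Dmd encodes dystrophin, Ptprd a receptor tyrosine phosphatase of synapses and Dlg2 a postsynaptic scaffold.

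Gene families differed widely around the background of 34.3%. Of 40 families, 26 had a higher share of members with a peak and 14 a lower one. The interval lay wholly above 34.3% in 18, wholly below in 10 and over it in 12. Since span moved with having a peak, the share of all protein-coding genes in the same span classes is given beside each family's. Against those shares 26 of 40 families were higher as well, but not all the same ones. Solute carrier genes and kinesin and myosin genes were higher against the background alone. Complex I and mitochondrial import genes were higher against their spans alone. Families were taken by symbol, so a family can hold genes of like name and other roles. In the stronger 50% of the list, 21.4% of protein-coding genes had a peak, and 24 of the 26 families above 34.3% stayed above that background. Of the 36 families with any peak, 19 had a share there that was lower by over 1.5 times. The background, from 34.3% to 21.4%, was lower by over 1.5 times too, so such a fall was not particular to these families. Among the 19 were aminoacyl-tRNA synthetase genes (33.3%), Rab genes (28.8%) and collagen and laminin genes (21.8%), each still above 21.4%.

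Chromatin and nuclear regulators stood high. Chromatin remodeler, Arid and Brd genes had the highest share of the 40 families, 43 of 50 (86.0%, interval 73.8 to 93.0), where genes of the same spans gave 43.0%. For Smarc, Chd, Ino80, Bptf, Arid1 and Arid2 genes alone it was 28 of 32 (87.5%). Bptf, the largest subunit of a nucleosome remodeling complex, had 9 peaks, and the helicase genes Chd5 and Chd3 had 5 each, while Smarcad1 and Arid3b had none. Histone lysine methylation and demethylation genes, with the related Prdm genes, had a peak in 38 of 56 (67.9%, same spans 45.5%), led by Kmt2d, Setd1b with 7 and Kmt2e with 6. Zinc finger protein genes had one in 211 of 397 (53.1%, interval 48.2 to 58.0, same spans 35.9%), with 513 peaks in all. Zfp462 had 9, and Zfp608 and Zfp646 had 8 each. SOX and forkhead genes, most of them short, had one in 35 of 63 (55.6%, same spans 28.1%), led by the neuronal differentiation factors Sox11 with 6 and Sox4 with 4, and by Sox8 with 5. HOX genes, which pattern hindbrain and spinal cord but not the cortex, had none in 39 (same spans 22.2%).

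Ubiquitin and signalling genes varied. Deubiquitinase genes had a peak in 45 of 58 (77.6%, interval 65.3 to 86.4, same spans 42.0%), led by Usp27x. RING and TRIM ligase genes had one in 67 of 151 (44.4%, same spans 36.2%), among them the brain ligase gene Trim67 with 9, and cullin adaptor genes in 74 of 166 (44.6%, same spans 33.9%), among them Fbxl19 and Klhl25 with 7 each. MAP kinase and DUSP genes had one in 37 of 67 (55.2%, same spans 38.5%), with at most 4 peaks in a gene. Cyclin, CDK and E2F genes had one in 11 of 43 (25.6%, same spans 38.3%), with an interval, 14.9 to 40.2, that holds both that share and the background. Cdk13, a transcriptional kinase gene, had 5 peaks while Cdk6 and Cdk14 had none.

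**Figure D5:**
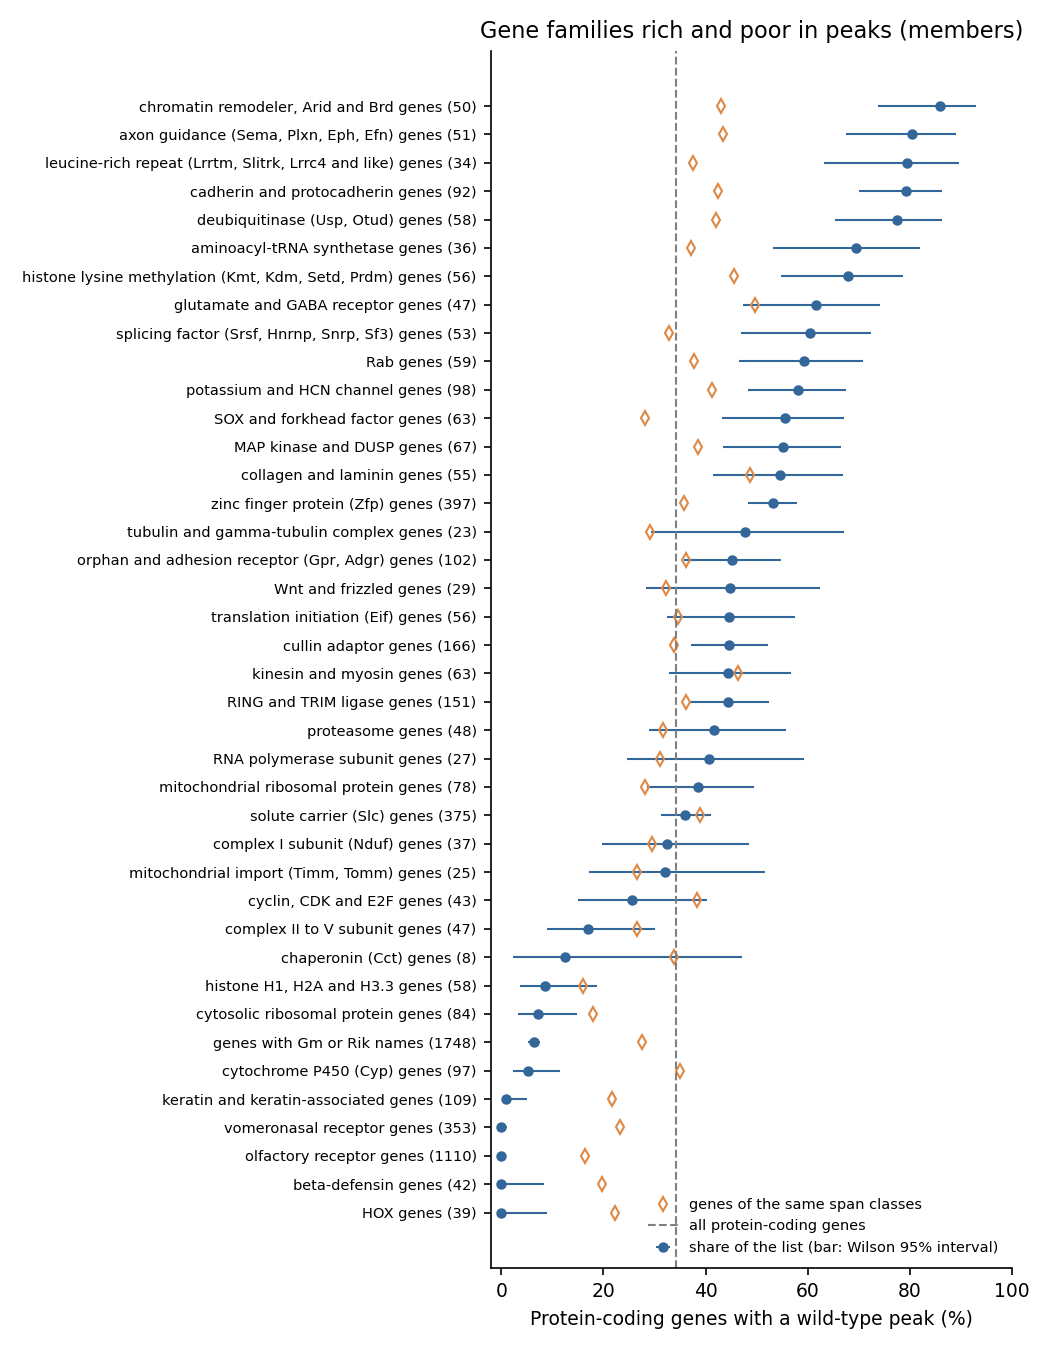
Percent of protein-coding genes with a wild-type peak (horizontal axis) in each of 40 families, with the number of members after each name. Points are the family's share with its Wilson 95% interval, open diamonds the share over genes of the same span classes, and the dashed line the 34.3% of all protein-coding genes. The chromatin remodeler family lies at 86.0% and olfactory receptors at 0.

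Genes of neuronal wiring and adhesion were also high. Axon guidance genes, ligands and receptors that steer growth cones, had a peak in 41 of 51 (80.4%, interval 67.5 to 89.0, same spans 43.5%), led by Ephb2 with 6 peaks, while Sema5a and Epha3 had none. Cadherin and protocadherin genes had one in 73 of 92 (79.3%, same spans 42.5%), with 211 peaks in all and 9 in Pcdh17. The exons of clustered protocadherin genes are partly shared and close copies, so reads can be hard to assign among them. Leucine-rich repeat genes of the Lrrtm, Slitrk, Flrt, Lrfn, Lrrn and Lrrc4 groups, many of which organise synapses, had one in 27 of 34 (79.4%, same spans 37.5%). Without Lrrc40 to Lrrc49 and Lrrn4cl, which share only the start of the name, it was 22 of 25. The 34 had the most peaks per member of the 40 families, 2.59, beside 2.58 in the chromatin remodeler family. Their share was also 79.4% in the stronger 50% of the list, where that of axon guidance genes was 62.7% and that of cadherins 53.3%.

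Ion channels, receptors and transporters were intermediate. Potassium and HCN channel genes had a peak in 57 of 98 (58.2%, interval 48.3 to 67.4, same spans 41.2%), with 6 peaks each in Kcna6 and Kcnd2, while Kcnma1 and Kcnip4 had none. Glutamate and GABA receptor genes had one in 29 of 47 (61.7%, interval 47.4 to 74.2, same spans 49.7%). They were led by the AMPA receptor gene Gria1 with 7, the NMDA receptor gene Grin2b with 6 and Grik3 with 6. Orphan and adhesion receptor genes had one in 46 of 102 (45.1%, interval 35.8 to 54.8, same spans 36.2%). Solute carrier genes had one in 135 of 375 (36.0%, interval 31.3 to 41.0, same spans 38.9%), close to the background, led by the sodium-calcium exchanger gene Slc8a2 with 6. Wnt and frizzled genes had one in 13 of 29 (44.8%, interval 28.4 to 62.5, same spans 32.3%). Collagen and laminin genes had one in 30 of 55 (54.5%, interval 41.5 to 67.0, same spans 48.7%). The intervals of the glutamate and GABA, orphan and adhesion, Wnt and collagen families hold their same-span shares.

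Cytoskeletal and trafficking genes differed in how many peaks they held. Rab genes had one in 35 of 59 (59.3%, same spans 37.8%), but mostly a single peak, and at most 3, in Rab15. Kinesin and myosin genes had one in 28 of 63 (44.4%, interval 32.8 to 56.7, same spans 46.3%). They had a median of 3 peaks where they had any, with 7 in Myo18a and Kif21b. Tubulin and gamma-tubulin complex genes had one in 11 of 23 (47.8%, same spans 29.2%), with an interval, 29.2 to 67.0, that holds the background. Tubulins alone had one in 9 of 18, among them Tubb4a with 4 and the neuronal Tubb3 with 3.

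Genes of basic cell machinery split into groups. Aminoacyl-tRNA synthetase genes, which charge tRNAs with amino acids, had a peak in 25 of 36 (69.4%, interval 53.1 to 82.0, same spans 37.2%), led by Yars, Pars2 and Hars with 3 each. Splicing factor genes had one in 32 of 53 (60.4%, same spans 32.9%), led by Sf3b2 with 4, while Sf3b1 and Sf3b3 had none. Translation initiation genes, factors and their kinases and binding proteins, had one in 25 of 56 (44.6%, interval 32.4 to 57.6, same spans 34.6%). Proteasome genes had one in 20 of 48 (41.7%, interval 28.8 to 55.7, same spans 31.6%). RNA polymerase subunit genes had one in 11 of 27 (40.7%, interval 24.5 to 59.3, same spans 31.03%). Mitochondrial ribosomal protein genes had one in 30 of 78 (38.5%, interval 28.4 to 49.6, same spans 28.1%). Complex I genes had one in 12 of 37 (32.4%, same spans 29.5%) and import genes in 8 of 25 (32.0%, same spans 26.5%), below the background but above genes of their spans, with intervals that hold both. The subunits of complexes II to V had one in 8 of 47 (17.0%, interval 8.89 to 30.1, same spans 26.6%). Cytosolic ribosomal protein genes had one in 6 of 84 (7.14%, interval 3.31 to 14.7, same spans 17.99%), and none had more than 1. Rpl41, Rpl22 and Rps19 were among the 6. The 84 include genes of tissue-restricted copies, and ribosomal protein reads can be shared with processed copies elsewhere in the genome. Of the 8 chaperonin genes, Cct6a alone had a peak, of 90 bases (12.5%, interval 2.24 to 47.1, same spans 33.8%). In these machinery families the most peaks in a gene were the 6 of Eif4g3.

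Families of receptors, defensins, keratins and cytochromes had few peaks or none. None of 1110 olfactory receptor genes, 353 vomeronasal receptor genes or 42 beta-defensin genes had a peak, against 16.4%, 23.2% and 19.8% of genes of the same spans. Keratin genes had one in 1 of 109 (Krt12, same spans 21.7%) and cytochrome P450 genes in 5 of 97 (5.15%, same spans 35.02%), among them Cyp26b1, which breaks down retinoic acid, with 2. Among other groups, histone H1, H2A and H3.3 genes, many of whose mRNAs lack a poly(A) tail, had one in 5 of 58. This is 8.62% (interval 3.74 to 18.6, same spans 16.05%), and H2ax and H1f0 had 2 peaks each. Genes with Gm or Rik names had one in 110 of 1748 (6.29%, same spans 27.6%).

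Markers of the labelled tissue were checked, as far as a peak list allows. Of 8 cortical markers 6 had a peak, among them the layer factors Cux2 with 5, Bcl11b and Cux1 with 4 each, and Fezf2 with 3. Of 6 hippocampal markers 5 did (83.3%, interval 43.6 to 97.0, same spans 37.7%), with 3 in Wfs1 and 2 each in Prox1, Zbtb20 and Neurod1. None of 12 markers of cerebellum, hindbrain, hypothalamus and midbrain did (interval 0 to 24.2, same spans 24.2%). Nor did any of 5 blood markers (interval 0 to 43.4, same spans 23.4%). The intervals of the cortical, other-region and blood markers hold the same-span shares, so these short lists do not settle the tissue. Neuron markers had one in 11 of 15 (same spans 45.1%), led by Elavl3 with 5, Map2 with 4 and Rbfox3 with 3, but Elavl4 and Gad2 had none. Astrocyte markers had one in 8 of 10 (same spans 35.8%) and oligodendrocyte lineage markers in 8 of 12 (same spans 33.8%), led by Cspg4 with 7. Microglia markers had one in 7 of 12 (58.3%, interval 32.0 to 80.7, same spans 31.0%). In the stronger 50% of the list 16.7% of them had one, beside 21.4% of all protein-coding genes. For neuron, astrocyte, oligodendrocyte lineage, and endothelial and mural markers it was 66.7%, 60%, 58.3% and 41.7% there. Endothelial and mural markers had one in 9 of 12 (same spans 41.0%), so genes that mark cells outside the neural lineage were in the list too. Of 9 meningeal and choroid plexus markers Foxc1 alone had peaks (interval 1.99 to 43.5, same spans 32.6%). Of 11 markers of other tissues Myh7 alone had peaks (interval 1.62 to 37.7, same spans 28.8%).

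Chromosomes differed in the share of protein-coding genes with a peak. None of 256 on the Y chromosome had one. Among the other chromosomes the share was lowest on the X chromosome, 208 of 966 (21.5%, interval 19.1 to 24.2), and highest on chromosome 18, 254 of 511 (49.7%, 45.4 to 54.0). Chromosomes 7, 13 and 14 had 28.5%, 28.1% and 29.5%, and chromosomes 5, 12 and 15 had 41.9%, 41.4% and 41.5%. The gene families that each chromosome carries, such as protocadherins like Pcdhb19 on chromosome 18, were not taken into account.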

How the data were processed

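STAR and the build GRCm38 were used, per the submitters' processing notes. For the peak caller, its thresholds and the pooling of libraries, the sources used here give nothing. A consensus list per genotype was deposited, in which each entry carries exonic blocks and a score read as a p-value or q-value (0 to 0.00015, with 764 wild-type peaks at 0). The wild-type list was read with Python 3.11.15 and pandas 2.3.3, and entries sharing an exonic base on a strand were merged. Of 7717 listed gene names, 7706 matched the RefSeq gene table of GRCm38.p6 by symbol or synonym on the same chromosome. The middle exonic base set a peak's position. Gene families were taken by symbol pattern and markers by name, among protein-coding genes. Merging, positions and motif counts were tested on simulated data. No test between samples was possible, since the list has no values per library.

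The members and lists were chosen with earlier results of these data known. Named genes were the 10 with most peaks, the 5 with the longest summed exonic length, the 5 peaks with most blocks, the 5 widest single-block peaks, the 5 noncoding genes with most peaks, up to 6 gene starts with the lowest p-value under a peak, and, for every gene list, as many as 3 members with most peaks and 2 with none. Ties went to width, and Gm and Rik names were left out. Not every gene under this rule is reported here. Protein lengths were not used here, so gene span replaced them in the length classes (borders 5, 20, 60 and 200 kb) and in the choice of the 5 short genes and of genes without a peak, a change made after seeing the data.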

Additional observations from a re-analysis of the deposited data

How the results depend on the processing

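No paired analysis was possible because the peak list gives nothing for single libraries. Leaving out replicates could not be run on such a list either, and classes of protein length were not run. Leaving entries unmerged, and merging without regard to strand or by whole span, moved none of the 9 main values beyond its interval or by over 1.5 times. Merging keeps every listed gene name, so the gene count could not change there. Keeping autosomes and X alone could change nothing, since no peak lay elsewhere. With the stronger 50% of entries there were 7496 peaks in 4767 genes, 36.2% of genes had 2 or more, the median width was 298 bases, 25.1% of peaks lay on several blocks, 17.4% near the gene end and 1.59% near the start. Merging peaks of a gene up to 100 bases apart gave 47.4% of genes with 2 or more, 210 bases and 27.8% on several blocks. Peaks of at least 100 bases gave 44.8%, 239 bases, 26.4% and 3.81% near the start. In settings added after seeing the data, peaks wider than 61 bases gave 47.0%, 210 bases and 24.9%. Leaving out scores of 0, also added then, gave 48.1% of genes with 2 or more. The median width without those scores was 181 bases, at the lower limit of the interval of 181 to 209. Windows of 500 and 5000 bases gave 7.50% and 57.2% near the end, and the nearest edge of the peak in place of its middle 19.5%. Windows of 100 and 500 bases gave 1.68% and 7.77% near the start. The motif share of 24.0% was 8.45% for GGACT and 43.8% for DRACH. The number of families above the comparison share of the setting was 25 or 26 in each setting run. That share was taken anew where the list or gene set changed. Single family shares moved, most in the stronger 50%, in 19 families by over 1.5 times, while the background there went from 34.3% to 21.4%. Leaving out genes of other roles, chosen after seeing the data, kept 4 family shares within their intervals. Unknown depth limits what the absence of a peak shows.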
